A study of Mus musculus with 6 samples.

Results

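Lysosomal hydrolases, membrane proteins of the lysosome and the regulators Tfeb and Grn were examined in kidneys of iron-deficient mouse pups. The members are 41 genes fixed by symbol, and all 41 were rows of the table of 24422 genes. Wild-type C57BL/6 pups were compared at postnatal day 15: 3 kidneys of the group called FeD (nutritional iron deficiency) and 3 of controls. Dams of FeD pups ate a synthetic diet (TD.80396) with 2 to 6 ppm iron from the age of 8 weeks, before mating, through pregnancy and until collection. Dams of controls were given 220 ppm iron in a different diet, from PicoLab. The diets thus differed in formula as well as in iron, and these cannot be told apart. No allele or agent other than the diet distinguished the groups. The number of litters is not stated in the sources used here, so the diet and the litter cannot be told apart, and in bulk kidney RNA fewer cells of a type and less RNA per cell cannot be told apart either.

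Lysosomes are acidic organelles in which hydrolases take apart proteins, glycans and lipids that arrive by endocytosis or autophagy. Most hydrolases are made in the endoplasmic reticulum, tagged with mannose 6-phosphate and delivered by sorting receptors, and a proton pump, the V-ATPase, keeps the lumen acid. In the kidney, proximal tubule cells are rich in lysosomes because they degrade the protein that they take up from the filtrate. Lysosomes also handle iron: ferritin is degraded there, and iron leaves the lumen through membrane carriers and channels. The transcription factor Tfeb, of the MiT/TFE family, turns on lysosomal genes through a short palindrome in their promoters.

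Total counts were 16189041 to 20374327 in control and 13732173 to 20853293 in FeD kidneys. The members held 0.908% ± 0.00883 of all counts in control and 1.00% ± 0.0306 in FeD kidneys (SD, n = 3), a difference of 0.0964 percentage points, and every FeD kidney lay above every control kidney. The lowest count of any member was 19 in a kidney, against a floor of 3 counts, which is 0.144 to 0.218 CPM and covers counting error only. All 41 members passed the filter on low counts, which kept 15145 genes. The pairs of replicates that include FeD kidney 3 differed most, with chi-square values per degree of freedom of 24.0 and 30.4, against 11.5 for the other FeD pair and 3.77 to 7.36 among controls.

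Of the 41 members, 17 were higher and 9 were lower in FeD kidneys at an adjusted P under 0.05 (edgeR's quasi-likelihood test, Benjamini-Hochberg adjustment over all tested genes), and 15 did not pass. Among all tested genes, 22.4% were higher and 23.3% were lower by the same rule, so the members' share higher was 41.5% and their share lower was 22.0%, the latter close to the background. The median log2 fold change was 0.09 over the members and -0.00177 over all tested genes. The median size of the log2 fold change, whichever its direction, was 0.31 over the members and 0.32 over all tested genes. No member was higher at least 2-fold, where 4.34% of all tested genes were, and 1 member, Acp5, was lower at least 2-fold, where 5.69% were. In 31 members the groups did not overlap, which is 75.6%, against 58.1% of all tested genes. Without FeD kidney 3 the counts were 17 higher and 9 lower, and without control kidney 1 they were 11 higher and 9 lower. Calls over all genes, in either direction, were 6924 with every kidney, 7754 without FeD kidney 3 and 5311 without control kidney 1.

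**Figure D1:**
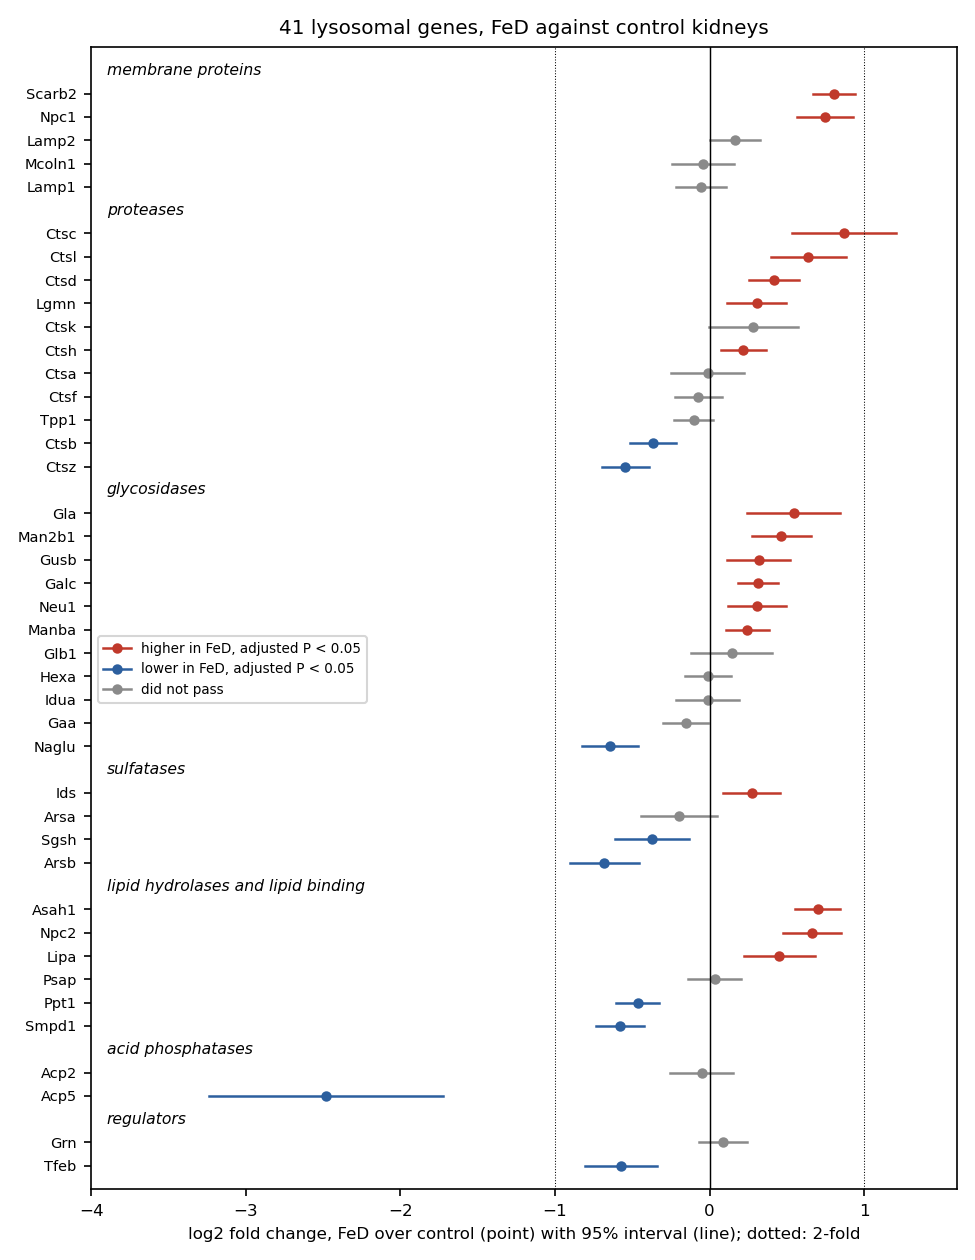
The log2 fold change of FeD over control is shown for each of the 41 genes, grouped by role, as a point with its 95% interval from the edgeR fit (n = 3 kidneys a group). Colour marks the 17 genes that were higher, the 9 that were lower and the 15 that did not pass. Acp5, at -2.48, is the single gene beyond the dotted lines at a 2-fold change.

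The palindrome through which Tfeb acts has CACGTG at its centre. It was searched for on both strands, which read alike, in RefSeq promoter windows of the GRCm38.p6 assembly that run from 250 bases before to 50 bases after each gene start. A window was found for 37 members, of which 5 have more than 1; Npc1, Ctsb, Ctsh and Asah1 were not matched. CACGTG was present in 13 of the 37 members, or 35.1%, against 11.2% of the 11463 tested genes with a window. The longer form TCACGTGA, which contains CACGTG and is counted in both, was present in 4 members, Ctsa, Ctsd, Gla and Mcoln1, or 10.8% against 1.97%. By direction, CACGTG was found in 4 of 14 members that were higher, in 2 of 8 that were lower and in 7 of 15 that did not pass. The stretches below surround the palindrome, in capitals, upstream of the gene start on the strand of the gene. They are shown because they put the same letters beside genes that rose (Ctsd, Ctsl, Gla, Lgmn), genes that fell (Naglu, Sgsh) and genes that did not pass (Lamp1, Mcoln1). A match is a description of these letters, not a site of binding. Their places are chr7:142387908-142387937, chr13:64370739-64370768, chrX:134601215-134601244, chr12:102439124-102439153, chr11:101070009-101070038, chr11:119355522-119355551, chr8:13159088-13159117 and chr8:3500462-3500491 in the order given, of which Ctsd, Ctsl, Gla, Lgmn and Sgsh lie on the minus strand.
Ctsd: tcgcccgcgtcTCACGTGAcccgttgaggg
Ctsl: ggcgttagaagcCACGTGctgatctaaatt
Gla: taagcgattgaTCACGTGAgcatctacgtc
Lgmn: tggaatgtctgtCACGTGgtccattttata
Naglu: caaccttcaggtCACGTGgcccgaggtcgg
Sgsh: gggcctgccgtgCACGTGaccgtggggagc
Lamp1: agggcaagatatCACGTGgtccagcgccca
Mcoln1: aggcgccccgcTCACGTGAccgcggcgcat

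Tfeb itself was lower in FeD kidneys at the level of RNA, and the activity of its protein was not measured. It stood at 844, 857 and 928 TMM-normalized counts (counts scaled to the mean library size) in control kidneys 1 to 3 and at 659, 518 and 589 in FeD kidneys 1 to 3. Every FeD kidney lay below every control kidney, and FeD kidney 2 was lowest. The log2 fold change was -0.57 (SE, the standard error, 0.10, adjusted P = 0.00256), from 876 ± 45.0 to 589 ± 70.5 (SD, n = 3). In the NCBIM37 (mm9) annotation, to which all gene positions below refer, Tfeb spans bases 47873979 to 47929368 of chromosome 17. The other regulator, Grn, encodes progranulin, which is cut into granulins in the lysosome, and its log2 fold change was 0.09 (adjusted P = 0.333).

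Among the 5 membrane proteins, 2 rose (40%) and 3 did not pass, against 22.4% higher and 23.3% lower of all tested genes. Scarb2 encodes LIMP-2, a major protein of the lysosomal membrane that also acts as a sorting receptor, and had the smallest adjusted P of all members. Its counts were 1571, 1501 and 1524 in control and 2553, 2803 and 2675 in FeD kidneys (chromosome 5, 92872899 to 92934634). The FeD kidneys were all far above the controls, and the log2 fold change was 0.80 (SE 0.06, adjusted P = 5.16e-05), 1.75-fold. Npc1, which exports cholesterol across the lysosomal membrane, was at 545, 543 and 542 counts in control and at 889, 978 and 865 in FeD kidneys. The control kidneys were nearly equal and the FeD kidneys were all higher, with a log2 fold change of 0.74 (SE 0.08, adjusted P = 2.46e-04).

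The abundant coat proteins of the lysosomal membrane moved little. Lamp1 (chromosome 8, 13159135 to 13175338) was at 16290, 16895 and 16994 counts in control and at 16444, 15781 and 16016 in FeD kidneys. The groups overlapped, and the log2 fold change was -0.06 (95% interval -0.22 to 0.10, adjusted P = 0.533). Lamp2 (chromosome X, 35754534 to 35809631), which also serves chaperone-mediated autophagy, was at 10536, 10920 and 10526 counts in control and at 11330, 12328 and 12180 in FeD kidneys. Every FeD kidney was above every control kidney, but the log2 fold change of 0.16 did not pass (SE 0.07, adjusted P = 0.0894). Without FeD kidney 1 it was 0.22, and it then passed, as it did in DESeq2 (adjusted P = 0.0204). Mcoln1, a cation channel of the lysosomal membrane that conducts calcium and iron, had a log2 fold change of -0.04 (adjusted P = 0.731).

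Proteases went both ways: of 11, 5 rose (45.5%), 2 fell (18.2%) and 4 did not pass. Of all tested genes, 22.4% were higher and 23.3% were lower, so the share that fell was near the background. Ctsc, a dipeptidyl peptidase that activates serine proteases of immune cell granules, was at 759, 799 and 719 counts in control and at 1234, 1168 and 1744 in FeD kidneys (chromosome 7, 95426595 to 95459398). Its log2 fold change of 0.87 (SE 0.15, adjusted P = 0.00206) was the largest rise among the members. FeD kidney 3 stood above the other two, and without it the value was 0.68. Ctsl (chromosome 13, 64464522 to 64471614), a cysteine endopeptidase, was at 10796, 11805 and 11482 counts in control and at 18186, 19673 and 15135 in FeD kidneys. All FeD kidneys were higher and FeD kidney 3 was the lowest of them, with a log2 fold change of 0.64 (SE 0.11, adjusted P = 0.00191), which was 0.75 without FeD kidney 3. Ctsd, the main aspartic protease of the lysosome (chromosome 7, 149557053 to 149573943), was at 12439, 12662 and 13275 counts in control and at 17404, 16898 and 16884 in FeD kidneys. The groups were well apart, and the log2 fold change was 0.42 (SE 0.07, adjusted P = 0.00206). Of the exon bases of Ctsd, 6.47% overlap 6330512M04Rik, and 2.66% of its windows of 100 bases recur in that gene.

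Ctsb and Ctsz fell while Ctsd, Ctsl and Ctsc rose. Ctsb (chromosome 14, 63741302 to 63764758), a cysteine protease, was at 13197, 13464 and 13580 counts in control and at 10391, 10400 and 10443 in FeD kidneys. Kidneys within each group were close and the groups did not overlap, with a log2 fold change of -0.37 (SE 0.07, adjusted P = 0.00265). Of the exon bases of Ctsb, 16.2% overlap Fdft1 on the opposite strand, and whether reads were counted by strand is not given in the sources used here. Ctsz, a carboxypeptidase, had a log2 fold change of -0.54 (adjusted P = 4.20e-04). Lgmn, an asparaginyl endopeptidase that processes other cathepsins, was at 0.30 (adjusted P = 0.0176), and Ctsh, an aminopeptidase, at 0.22 (adjusted P = 0.0234). Both of those calls were lost when any 1 control kidney was left out, with adjusted P of up to 0.0758 for Lgmn and 0.0967 for Ctsh. The other four, Ctsk (0.28), Ctsa (-0.01), Ctsf (-0.07) and Tpp1 (-0.10), did not pass on the log2 scale, though Ctsk passed without FeD kidney 1, at 0.40.

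The makeup of the cathepsin counts shifted with these changes. Of the raw counts on the 9 cathepsins, Ctsb held 26.2% ± 0.290 in control and 17.6% ± 0.860 in FeD kidneys (SD, n = 3). Ctsl rose from 22.2% ± 0.530 to 29.7% ± 2.60 and Ctsd from 25% ± 0.650 to 28.8% ± 1.2. Ctsb had the largest share in each control kidney and ranked behind both Ctsd and Ctsl in each FeD kidney. Ctsc went from 1.48% ± 0.0810 to 2.35% ± 0.650 and Ctsz from 3.20% ± 0.210 to 1.89% ± 0.140, while Ctsh stayed at 6.94% ± 0.230 and 6.98% ± 0.560. These are shares of reads and were not tested.

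**Figure D2:**
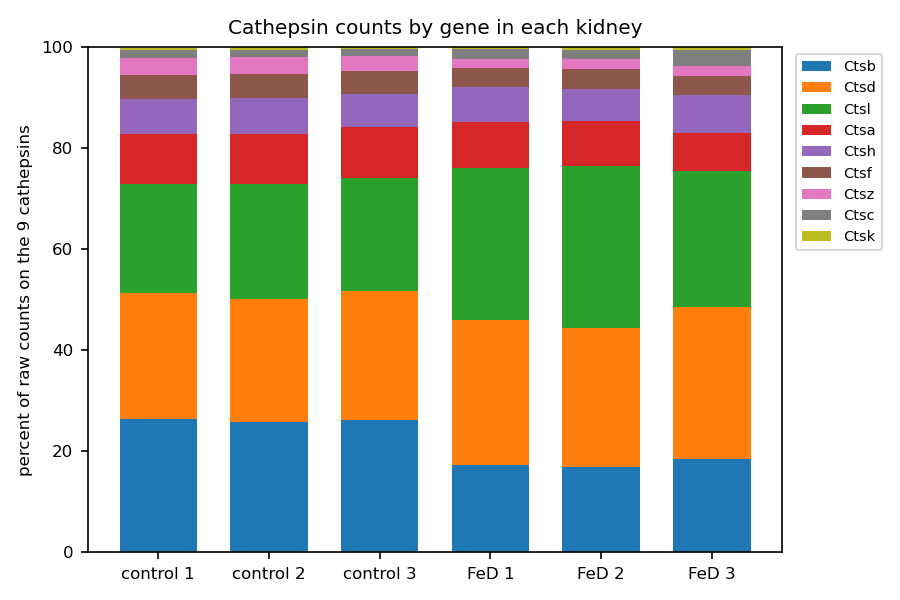
Each bar is 1 kidney, split by the percent of raw counts that each of the 9 cathepsin genes took. Ctsb took 25.9% to 26.4% in the 3 control kidneys and 16.9% to 18.5% in the 3 FeD kidneys, while Ctsl took 21.6% to 22.7% and 26.9% to 32.1%.

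Most glycosidases that passed were higher. Of 11 glycosidases, 6 rose (54.5%), 1 fell (9.09%) and 4 did not pass, against 22.4% higher and 23.3% lower of all tested genes. The 6 were Gla (0.54), the alpha-galactosidase of globotriaosylceramide, Man2b1 (0.46) and Manba (0.24), which remove mannose from glycoproteins, Gusb (0.32), the beta-glucuronidase, Galc (0.31), which removes galactose from galactosylceramide, and Neu1 (0.31), a sialidase, each as a log2 fold change. Their adjusted P values ran from 0.00260 for Galc to 0.0205 for Gusb. Several of these calls were lost when 1 control kidney was left out, where calls over all genes also fell, from 6924 to between 5019 and 5311. Gla, Manba and Neu1 did not pass without control kidney 1 (adjusted P of 0.0501, 0.0652 and 0.0700), Neu1 also not without control kidney 2, and Gusb not without control kidney 2 or 3 (up to 0.0907). Galc and Man2b1 passed whichever kidney was left out.

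Naglu, which cleaves N-acetylglucosamine from heparan sulfate, was the glycosidase that fell. It was at 1042, 1098 and 1099 counts in control and at 714, 633 and 725 in FeD kidneys (chromosome 11, 100931326 to 100938986). All FeD kidneys lay below all control kidneys, with a log2 fold change of -0.64 (SE 0.08, adjusted P = 4.77e-04). The other four were Glb1, the beta-galactosidase (0.14), Hexa (-0.01), Idua (-0.01) and Gaa, the acid alpha-glucosidase of glycogen (-0.16). Gaa came nearest to passing, with an adjusted P of 0.0769. Glb1 passed when FeD kidney 2 was left out, at 0.28.

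The 4 sulfatases divided, with 1 higher (25%), 2 lower (50%) and 1 not passing. Of all tested genes, 22.4% were higher and 23.3% were lower. In all 4 the groups did not overlap, which also held for 58.1% of all tested genes. With 4 genes this is not read as a trait of sulfatases. Arsb, which removes sulfate from dermatan sulfate and chondroitin sulfate, was at 1756, 1876 and 1885 counts in control and at 1080, 1026 and 1328 in FeD kidneys (chromosome 13, 94541634 to 94712971). FeD kidney 3 was the highest of its group and still below all controls, with a log2 fold change of -0.68 (SE 0.10, adjusted P = 9.70e-04). Of the exon bases of Arsb, 45.3% overlap Gm17447 on the opposite strand, so reads of the pair may be mixed. Sgsh, the sulfamidase of heparan sulfate, had a log2 fold change of -0.38 (adjusted P = 0.0189), with 21.6% of its exon bases shared with Card14 on the opposite strand, and its call was lost without control kidney 2 or 3 (adjusted P of up to 0.0833). Ids, which removes sulfate from the ends of heparan and dermatan sulfate, was at 0.27 (adjusted P = 0.0236), a call lost when any 1 control kidney was left out (up to 0.0849). Arsa, the sulfatase of sulfatides, was at -0.20 and did not pass (adjusted P = 0.167). Enzymes that act in turn on heparan sulfate thus had changes of both signs, Ids and Gusb upward and Naglu and Sgsh downward.

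Genes of lipid breakdown had the largest median size of change of any group with more than 2 members, at 0.52 on the log2 scale. Over all tested genes it was 0.32. The largest single changes, those of Acp5, Ctsc, Scarb2 and Npc1, were in other groups. Of 6, 3 rose (50%), 2 fell (33.3%) and 1 did not pass, against 22.4% higher and 23.3% lower of all tested genes. Asah1, the acid ceramidase that splits ceramide, was at 1147, 1136 and 1155 counts in control and at 1734, 1951 and 1903 in FeD kidneys (chromosome 8, 42425551 to 42460127). The controls were close together and the FeD kidneys all higher, with a log2 fold change of 0.70 (SE 0.06, adjusted P = 1.27e-04). Smpd1, the acid sphingomyelinase that makes ceramide from sphingomyelin, went the other way. It was at 2513, 2340 and 2559 counts in control and at 1747, 1546 and 1661 in FeD kidneys (chromosome 7, 112702874 to 112706902). Again the groups did not overlap, and the log2 fold change was -0.58 (SE 0.07, adjusted P = 3.59e-04).

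Npc2, the soluble protein that hands cholesterol to Npc1, rose like its partner. Its counts were 2982, 3270 and 3194 in control and 5232, 5268 and 4468 in FeD kidneys (chromosome 12, 86095510 to 86114062). FeD kidney 3 was the lowest of the FeD kidneys and above every control, and the log2 fold change was 0.66 (SE 0.08, adjusted P = 4.91e-04). Lipa, the acid lipase that frees cholesterol from its esters, was also higher, at 0.45 (adjusted P = 0.00705). Ppt1, a thioesterase that removes palmitate from proteins, was lower, at -0.47 (adjusted P = 5.48e-04). Psap, the precursor of the saposins that present lipids to hydrolases, had the highest level per length of all members and a log2 fold change of 0.03 (95% interval -0.14 to 0.20, adjusted P = 0.757).

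The largest change of all was in a phosphatase. Acp5, the tartrate-resistant acid phosphatase, carries iron in its active site and is known as a marker of osteoclasts and some macrophages. It was at 234, 267 and 294 counts in control and at 37.0, 24.7 and 76.0 in FeD kidneys (chromosome 9, 21931175 to 21940190). Every FeD kidney was below every control kidney, and FeD kidney 3 had over 2 times the count of the other two. The level was 265 ± 29.9 in control and 45.9 ± 26.8 in FeD kidneys (SD, n = 3), 5.59-fold lower, with a log2 fold change of -2.48 (SE 0.33, adjusted P = 6.69e-04). Without FeD kidney 3 it was -3.06. Raw counts in the FeD kidneys were 37, 19 and 88, the fewest of any member. Acp2, the other lysosomal acid phosphatase, was at -0.05 (adjusted P = 0.668).

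Markers of macrophages and osteoclasts were measured beside Acp5, and their part in its change was not tested. Of 12 macrophage markers, 7 were higher (58.3%), 2 were lower (16.7%) and 3 did not pass, against 22.4% higher and 23.3% lower of all tested genes. Their summed level was 151 to 173 CPM in control and 171 to 196 CPM in FeD kidneys. The 2 that fell were Aif1, by 0.94 on the log2 scale, and Csf1r, by 0.45. The 3 that rose past 2-fold were Fcgr3 (1.51), Itgam (1.37) and Cd68 (1.11), and Adgre1 was at -0.39 and did not pass. Among 4 osteoclast markers, Dcstamp and Ocstamp had 0 to 6 raw counts in every kidney and were not tested, and Calcr was at 0.21 and did not pass. The fourth, Atp6v0d2, rose by 0.57 and is also a gene of intercalated cells, and it makes up most of that list's summed level of 53.4 to 56.7 CPM in control and 74.1 to 89.2 CPM in FeD kidneys.

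**Figure D3:**
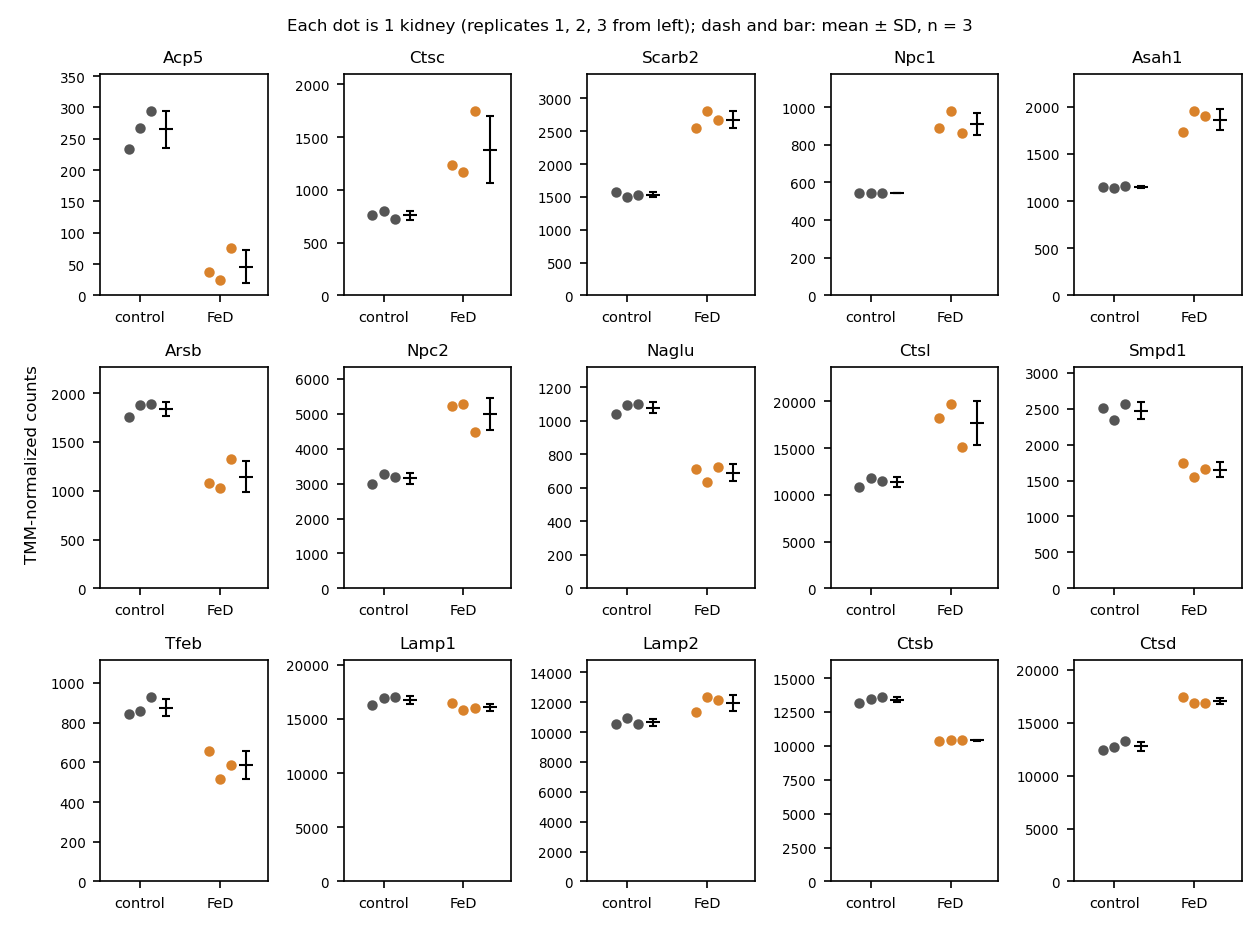
TMM-normalized counts are plotted for each kidney (dots) with the mean and SD of 3 kidneys, on axes that start at 0, for the 10 members with the largest changes and for Tfeb, Lamp1, Lamp2, Ctsb and Ctsd. The groups overlap for Lamp1 alone among these 15, and Acp5 shows the lowest counts, 24.7 to 76.0 in FeD kidneys.

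Levels of different genes were compared per kilobase of exon, for the 40 members with a length (Glb1 has more than 1 gene model). In control kidneys Psap was highest, at 8814 ± 264 normalized counts per kilobase (SD, n = 3), followed by Lamp1 (7418 ± 169), Ctsl (5752 ± 261), Ctsd (5078 ± 172), Lgmn (3908 ± 132) and Ctsb (2831 ± 41.4). The same 6 genes led in FeD kidneys, where Ctsl (8944 ± 1171) was level with Psap (9009 ± 312) within their spread and above Lamp1 (7131 ± 149). At the other end stood Gla (40.3 ± 3.67), Npc1 (50.7 ± 0.125) and Sgsh (64.5 ± 3.69) in control kidneys. In rank among the 40, Npc2 moved from 16 to 7 and Scarb2 from 20 to 11, while Ctsz moved from 10 to 19 and Acp5 from 32 to 40. These levels are not corrected for how well each gene's reads map, and Ctsa, Arsa and Acp2 share 17.4%, 18.8% and 12.6% of their exon bases with genes on the opposite strand.

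**Figure D4:**
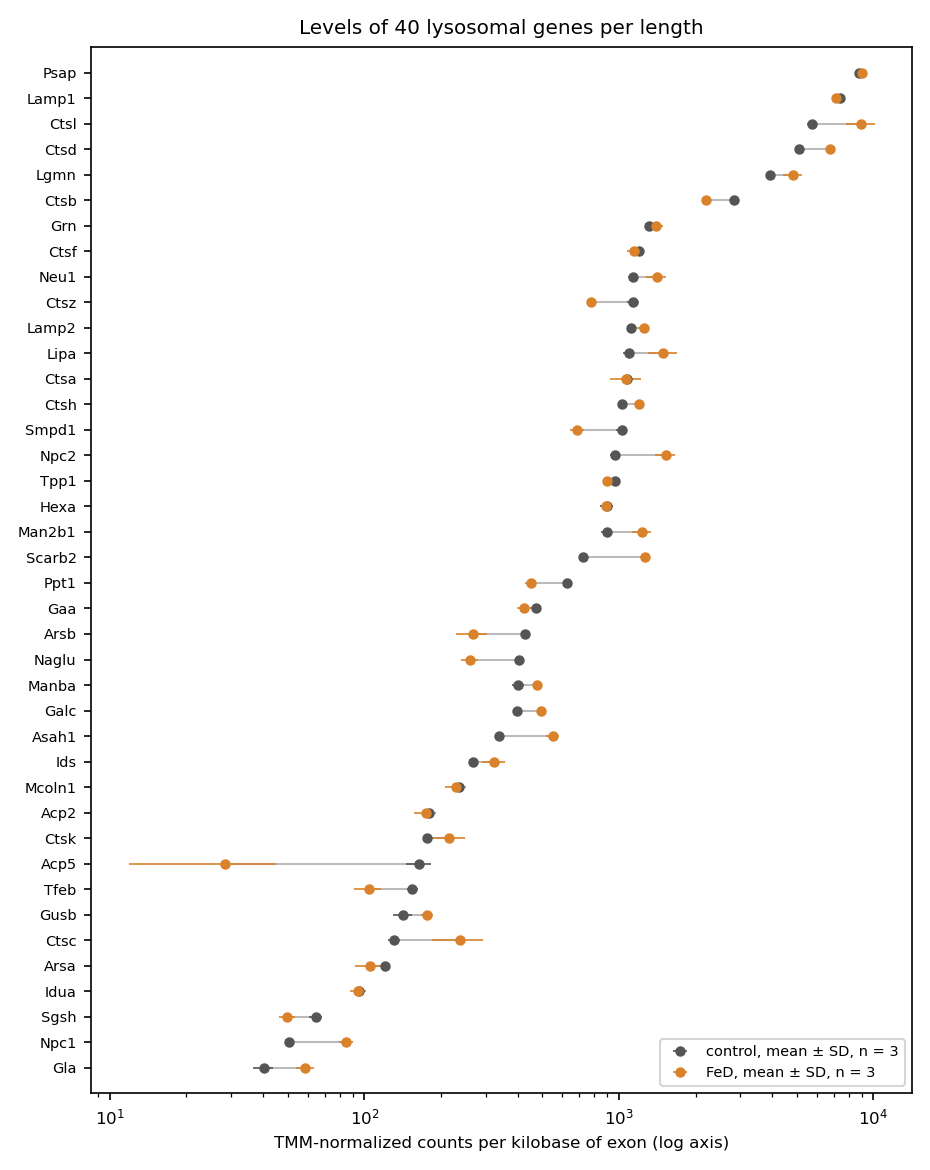
Each row is 1 of 40 genes in order of its control level, with the mean and SD of 3 control and 3 FeD kidneys in TMM-normalized counts per kilobase of exon on a log axis. Psap, Lamp1, Ctsl and Ctsd lie at 5078 or more in both groups, and Acp5 shows the widest gap, 164 against 28.5.

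Spread between kidneys was larger in the FeD group. The coefficient of variation of FeD kidneys exceeded that of controls in 32 of 41 members, or 78.0%, against 74.4% of all tested genes. Its median over members was 3.62% in control and 6.92% in FeD kidneys, and over all tested genes it was 5.98% and 11%.

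Other genes of the pathway were taken from 6 lists. For comparison, 22.4% of all tested genes were higher and 23.3% were lower by the same rule. Of 15 V-ATPase subunits tested, 1 rose, 7 fell and 7 did not pass, with a median log2 fold change of -0.19. Atp6v1f, a subunit of the catalytic domain, had the largest change, from 2778 ± 117 to 1908 ± 79.0 normalized counts (a change of -0.54 on the log2 scale, adjusted P = 3.04e-04), and the gene that rose was the accessory subunit Atp6ap2 (0.43). Atp6v0c was listed at 0 in all kidneys and was not tested. Of 13 genes of sorting to the lysosome, 3 rose, 5 fell and 5 did not pass. The largest change in that list was that of Nagpa, the enzyme that uncovers the mannose 6-phosphate tag, at -0.68 (adjusted P = 0.00283). Among 17 MiT/TFE factors and genes of nutrient sensing at the lysosome, 4 rose, 4 fell and 9 did not pass. The shares of that list, 23.5% higher and 23.5% lower, were close to those of all tested genes. Tfec, a relative of Tfeb, fell past 2-fold, from 259 ± 26.2 to 109 ± 18.9 (a change of -1.23 on the log2 scale, adjusted P = 5.19e-04). Both other factors, Tfe3 (-0.14) and Mitf (-0.21), did not pass.

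Further lysosomal enzymes and carriers also went both ways, as did all tested genes (22.4% higher and 23.3% lower). Of 17 other hydrolases and activators, 5 rose (29.4%), 3 fell (17.6%) and 9 did not pass, with a median of 0.15. Ctss, a cysteine protease of antigen-presenting cells, went from 107 ± 14 to 307 ± 12.9 normalized counts (a change of 1.53 on the log2 scale, adjusted P = 8.96e-05). Dpp7, a dipeptidyl peptidase, went from 564 ± 28.8 to 247 ± 38.3 (a change of -1.2 on the log2 scale, adjusted P = 1.80e-04). Of 14 other membrane proteins tested, 4 rose, 2 fell and 8 did not pass, and Lamp3 was listed at 0 in all kidneys. Slc17a5, sialin, which exports the sialic acid that Neu1 releases, stood at 823, 914 and 905 counts in control and at 2304, 2173 and 2280 in FeD kidneys. Its groups were the furthest apart of that list, with a log2 fold change of 1.35 (SE 0.06, adjusted P = 8.86e-06). Of 5 protease inhibitors tested, 4 rose and 1 fell. The largest change was that of Stfa1, a stefin, which had 2.88 to 11.1 normalized counts in control and 19.9 to 46.8 in FeD kidneys (a change of 2.35 on the log2 scale, adjusted P = 0.00985).

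**Figure D5:**
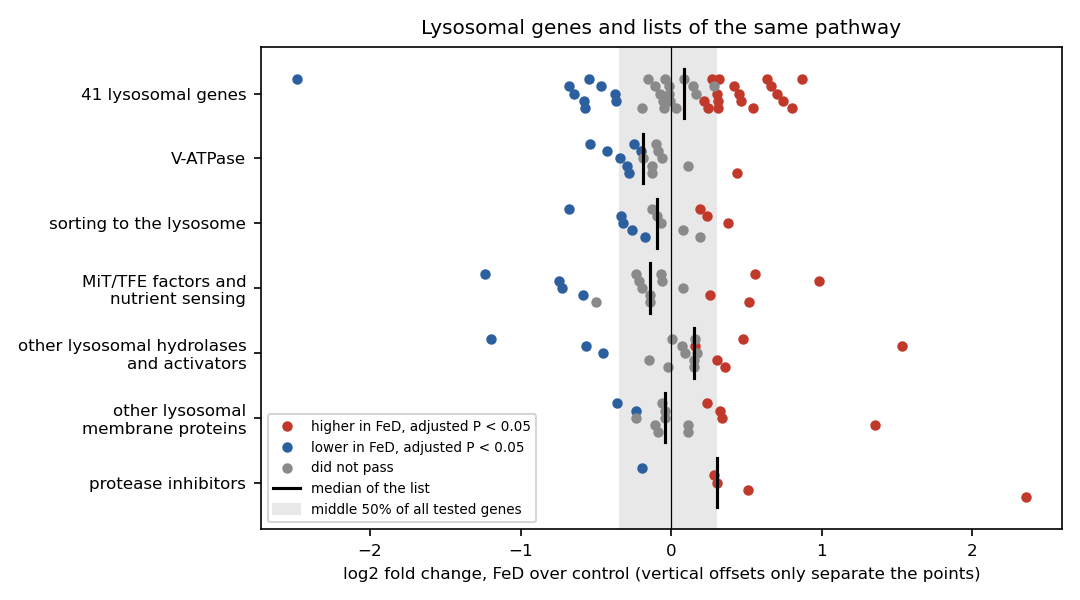
Each point is 1 gene's log2 fold change of FeD over control, for the 41 members and 6 lists of the same pathway, coloured by direction where the adjusted P was under 0.05. Black bars mark medians (0.09 for the members, -0.19 for the V-ATPase), and grey marks -0.34 to 0.30, the middle of all tested genes.

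Markers of other kidney cell types moved with the diet beside these genes, where 22.4% of all tested genes were higher and 23.3% were lower. Of 8 proximal tubule markers, 7 fell and none rose. Their summed level was 8321 to 8759 CPM in control and 3514 to 3897 CPM in FeD kidneys. Slc34a1 made up the largest part of that sum and had a log2 fold change of -2.22. The log2 fold changes ran from -4.89 (Slc5a2) to 0.18 (Slc5a12, not passing), with Lrp2 at -0.48, Cubn at -0.45 and Aqp1 at -0.45. Of 3 distal convoluted tubule markers 2 fell (1240 to 1507 against 344 to 545 CPM), and all 3 markers of collecting duct principal cells rose (883 to 1313 against 1552 to 2667 CPM). Among the other lists, 3 thick ascending limb and 3 podocyte markers did not pass, 2 of 3 endothelial markers fell, 3 of 4 fibroblast and pericyte markers rose and 1 fell, and of 3 intercalated cell markers 1 rose and 1 fell. All 4 globin genes were listed at 0 and Alas2 did not pass. Gene length moved with the result as well: the median log2 fold change ran from -0.13 in the fifth of tested genes with the shortest exons to 0.11 in the fifth with the longest. The part of cell types in the members' changes was not tested. With the length trend removed, an alternative added after seeing the data, 17 members were higher and 9 were lower, with Manba lost (adjusted P = 0.0703), Ctsk gained (adjusted P = 0.0471) and Glb1 not fitted.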

How the data were processed

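Poly(A) RNA of 6 kidneys was sequenced as single-end reads. The submitters' processing notes name CASAVA 1.8.2, Trimmomatic, TopHat2 2.0.11, HTSeq and mm9. The authors deposited raw counts per gene, neither normalized nor pooled. The annotation and strand setting are not given in the sources used here. Groups and replicates came from the labels.

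The test was that of edgeR 4.0.16 under R 4.3.3 (filterByExpr, TMM, glmQLFit, glmQLFTest, Benjamini-Hochberg adjustment over 15145 genes). The standard error is the size of the log2 fold change divided by the square root of F. P values set the difference between groups against the spread between 3 kidneys a group, which edgeR moderates across genes. They do not cover spread between litters, whose number is not stated. An exact permutation test cannot go below 0.1. In the study, replicates are biological. The common coefficient of variation was 0.128. Exon lengths, positions and overlaps came from the GENCODE annotation of NCBIM37. On simulated counts with 200 genes changed by 1 on the log2 scale, edgeR recovered 150 with 9 false calls among 15065 unchanged genes. DESeq2 1.42.0 recovered 163 with 30 false calls among 17571. In the data 6924 genes were called, and every called member but Acp5 changed by less than 1. The simulation does not measure recovery in that setting.

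Members and lists were chosen with earlier results of these data known. Values per kidney are given for the 10 called members with the largest change and for Tfeb, Lamp1, Lamp2, Ctsb and Ctsd. Of each pathway list, genes past both thresholds and the largest change are named; Atp6ap2, Tfe3, Mitf, Atp6v0c and Lamp3 were named after their values were seen. Alternatives were DESeq2, its size factors, library size alone, no filter or at least 10 counts in every kidney, a replicate block, a correction for gene length and each kidney left out.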

Additional observations from a re-analysis of the deposited data

How the results depend on the processing

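Over 13 alternatives, all 26 called members kept their direction and 18 also kept an adjusted P under 0.05. The number of members higher was 16 to 18 under other tools, scalings, filters, the replicate block and the length correction. It was 11 to 19 on leaving out 1 kidney, where calls over all genes ran from 5019 to 7754. The number of members lower was 8 to 9, and the number with no overlap was 31 to 34. Leaving out 1 kidney makes separation easier, so the no-overlap count is no check of that setting. Its share over all genes was not taken there. Kidneys with the same replicate number had correlations of their deviations from the group mean of -0.16, 9.57e-05 and -0.03. Deviations within a group cancel out, so these values cannot decide whether the kidneys were paired. With the replicate block, 16 members were higher and 8 lower, since Ctsh (0.22) and Sgsh (-0.38) no longer passed, and 6444 genes were called in all against 6924. Of the 15 members that did not pass, 7 changed sign in at least 1 alternative and 8 in none. Hexa was at 0.0018 with at least 10 counts in every kidney, and with the length trend removed Hexa was at 0.1032, Lamp1 at 0.0504, Ctsf at 0.0378, Idua at 0.0029 and Mcoln1 at 0.0091. On leaving out 1 kidney, Hexa ran from -0.0611 to 0.0298, Ctsa from -0.0588 to 0.111, Idua from -0.0583 to 0.033, Mcoln1 from -0.10 to 0.0154 and Acp2 from -0.11 to 0.0324. The cause was not tested. With the length trend removed Manba did not pass and Ctsk did; Glb1, with no single length, was not fitted there. In FeD kidneys Acp5 had 19 to 88 raw counts, which limits its precision.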
